A study of Mus musculus with 4 samples.

Results

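The proteins of the cytosolic ribosome were followed at the mRNA level in mouse T cells cultured under Th9 conditions with and without the cytokine TL1A. Members were every protein-coding gene whose symbol names a cytosolic ribosomal protein by subunit and number, together with Rpsa, Rplp0, Rplp1 and Rplp2. This gave 84 of the 23480 gene identifiers, 52 for the large subunit and 32 for the small subunit, spread over 19 chromosomes. Another 5 symbols that fit the pattern are annotated as pseudogenes and were left out, as were the S6 kinases and the mitochondrial ribosomal proteins. The rule reads names, not values, although the family was singled out with earlier results of these data known. A filter on low counts left 77 members for testing, 46 of the large and 31 of the small subunit.

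Total RNA was sequenced in 4 libraries, 2 of T cells under Th9 conditions (Th9) and 2 of T cells under Th9 conditions with TL1A (Th9+TL1A). The sample labels write TLA1 where the series title writes TL1A, and both are read here as the same cytokine, a member of the TNF superfamily. Th9 cells, a helper subset, are defined by their secretion of interleukin 9. The comparison addressed how the Th9 transcriptome differs when TL1A is present. The labels give no mouse strain, age, dose or time, and whether the replicates were separate mice or separate cultures is not said. A p-value here therefore speaks of the spread among 4 libraries, possibly a technical one. In bulk RNA, fewer cells of a type and less RNA per cell cannot be told apart.

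Each ribosome holds one copy of most of these proteins, joined to ribosomal RNA in a small subunit that reads the mRNA and a large subunit that forms peptide bonds. T cells increase ribosome production when they are activated and begin to divide. The mRNAs of the family typically begin with a C followed by a run of pyrimidines, the 5′ terminal oligopyrimidine (TOP) tract, through which the mTOR pathway and the protein LARP1 control their translation. Translation was not measured in these libraries, which show only mRNA levels.

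The tract could be looked for in RefSeq start sites of 64 members on GRCm38.p6, the assembly of mm10. The search read the gene's own strand for a C followed by at least 4 further C or T bases, beginning within 10 bases of the start site. It was found in 40 of 64 members (62.5%), 25 of 40 for the large and 15 of 24 for the small subunit, and in 6111 of all 17492 protein-coding genes with a start site (34.9%). Windows from 40 bases before to 20 bases after the start site are shown for 7 members to which the results below return. They are the members with the highest log2 fold change in each subunit, the member with the lowest, the substrate of the S6 kinases, the paralogue of Rpl22 and the most abundant member of each subunit. Capitals mark the tract, and lines without capitals hold no match in that range. Where RefSeq lists several start sites, one with a tract is shown.
Rps21, chr2:180257339-180257398, plus strand: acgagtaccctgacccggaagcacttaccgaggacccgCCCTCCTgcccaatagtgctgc
Rpl19, chr11:98026670-98026729, plus strand: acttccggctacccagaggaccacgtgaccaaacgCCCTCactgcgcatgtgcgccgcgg
Rps6, chr4:86857348-86857407, minus strand: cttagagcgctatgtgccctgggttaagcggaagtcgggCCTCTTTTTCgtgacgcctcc
Rpl22l1, chr3:28805468-28805527, plus strand: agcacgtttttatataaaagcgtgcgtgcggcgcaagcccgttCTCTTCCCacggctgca
Rpl35a, chr16:33056442-33056501, plus strand: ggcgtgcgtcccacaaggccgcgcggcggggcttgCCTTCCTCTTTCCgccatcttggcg
Rps3, chr7:99483690-99483749, minus strand: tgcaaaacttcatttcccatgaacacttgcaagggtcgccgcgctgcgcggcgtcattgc
Rpl4, chr9:64173347-64173406, plus strand: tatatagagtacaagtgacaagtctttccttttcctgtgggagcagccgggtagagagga

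Library depth was 2979482 to 4041633 reads in genes, deepest in Th9 replicate 1. At that depth 3 reads were worth 0.742 to 1.01 CPM, the deposited unit, in which counts are scaled to one total for every library. All 8 T cell markers had reads in every library, and their summed level was 2846 and 3286 CPM in Th9 and 3785 and 3605 CPM in Th9+TL1A. B cell markers (1 to 3 of 4 with a read, Ms4a1 at 0 throughout) summed to 10.4 and 12.9 CPM in Th9 and 28.9 and 29.2 CPM in Th9+TL1A. Myeloid and dendritic markers (2 or 3 of 7 with a read, Lyz2 and Csf1r at 0 throughout) summed to 1.48 and 1.89 against 11.1 and 6.17 CPM, and CD8 T cell markers (1 or 2 of 2 with a read) lay between 7.92 and 13.3 CPM. The NK and erythroid markers were at 0 in all 4 libraries. The part of other cells in the results below was not tested.

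Ribosomal protein mRNA took a larger share of reads with TL1A, and the library-to-library spread was large beside that difference. The family held 2.45% and 2.89% of reads under Th9 conditions alone and 3.41% and 3.15% when TL1A was added. The groups did not overlap. The 52 large subunit genes summed to 13229 and 15054 CPM in Th9 and to 17498 and 15873 CPM in Th9+TL1A. Their group means were 14142 ± 1290.5 and 16686 ± 1149 CPM (SD, n = 2), a ratio of 1.18. The 32 small subunit genes summed to 11277 and 13856 CPM in Th9 and to 16616 and 15612 CPM in Th9+TL1A. Their group means were 12567 ± 1823 and 16114 ± 709.6 CPM (SD, n = 2), a ratio of 1.28. With TMM scaling, which corrects for differences in RNA composition, the ratios were 1.25 and 1.36. In both subunits Th9 replicate 1 was the lowest library and Th9+TL1A replicate 1 the highest. The gap between the Th9 replicates lay between the gaps from Th9 replicate 2 to the 2 Th9+TL1A libraries. An exact permutation test of 2 libraries against 2 cannot give a p below 0.333, so the sums are described without one.

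The balance of the subunits lay slightly further toward the small one with TL1A. The ratio of large to small subunit CPM, which does not depend on library scaling, was 1.17 and 1.09 in Th9 and 1.05 and 1.02 in Th9+TL1A. The group means were 1.13 ± 0.061 and 1.03 ± 0.026 (SD, n = 2), with no overlap and a difference of -0.095. Without Th9 replicate 1 the difference was -0.052. Most of it rested on the most abundant gene of each subunit. Without Rps3 the ratios were 1.42 and 1.31 against 1.33 and 1.28, a difference of -0.066, and the groups overlapped. Without Rpl4 they were 0.967 and 0.924 against 0.908 and 0.877, a difference of -0.054 with no overlap. Without both genes they were 1.17 and 1.12 against 1.14 and 1.10, a difference of -0.022, and the groups overlapped again.

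**Figure D1:**
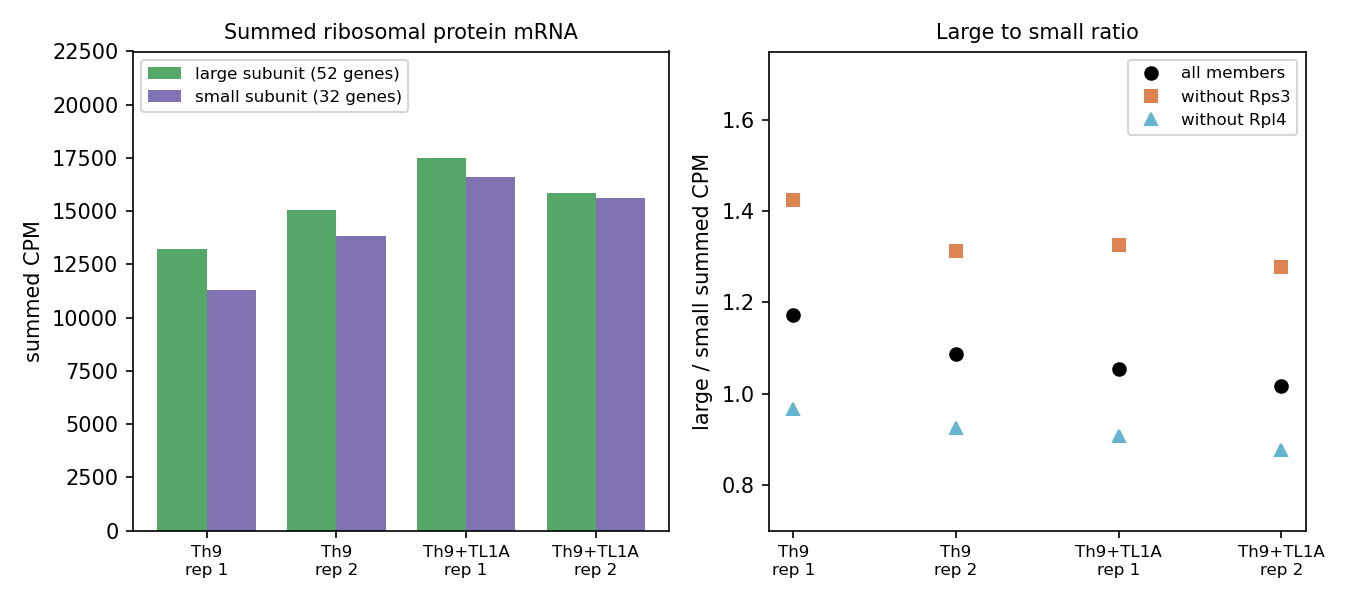
Left, bars of summed CPM of the large and small subunit genes in each of the 4 libraries. Right, points of the ratio of large to small subunit CPM in each library for all members, without Rps3 and without Rpl4. The Th9+TL1A bars are the taller ones in both subunits, and the black points run from 1.17 in Th9 replicate 1 to 1.02 in Th9+TL1A replicate 2.

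Gene by gene, most members lay higher with TL1A by a small factor, and no member passed the test. The limma log2 fold change on TMM-scaled log2(CPM + 1) was above 0 for 74 of 77 tested members, against 48.9% of all 10324 tested genes. The family median was 0.32, a 1.25-fold higher level, with 0.31 for the large subunit, 0.33 for the small subunit and -0.01 for all tested genes. Member values ran from -0.08 to 0.90 with an SD of 0.204, while the SD over all tested genes was 0.637. The groups did not overlap, with TL1A higher, for 53 of 77 members on this scale (33 of 46 large, 20 of 31 small), against 23.7% of all tested genes. On the deposited CPM, without TMM scaling, this count was 43 of 77, against 19.1% of all tested genes. For 0 members did they fail to overlap with TL1A lower, against a background of again 23.7%.

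Limma called 0 members at an adjusted p under 0.05, against 0.891% of all tested genes called higher and 0.252% called lower. At an unadjusted p under 0.05 it found 21 members, all higher (11 large, 10 small), against 8.54% of all tested genes higher at that level. The lowest adjusted p among members was 0.126, for Rps3. EdgeR's quasi-likelihood test and limma voom on the recovered reads also called 0 members. Over all 10324 tested genes they called 110 and 130 in either direction. DESeq2 called 1, Rps3, with an adjusted p of 0.0061, against 2.17% of its 8522 genes called higher.

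**Figure D2:**
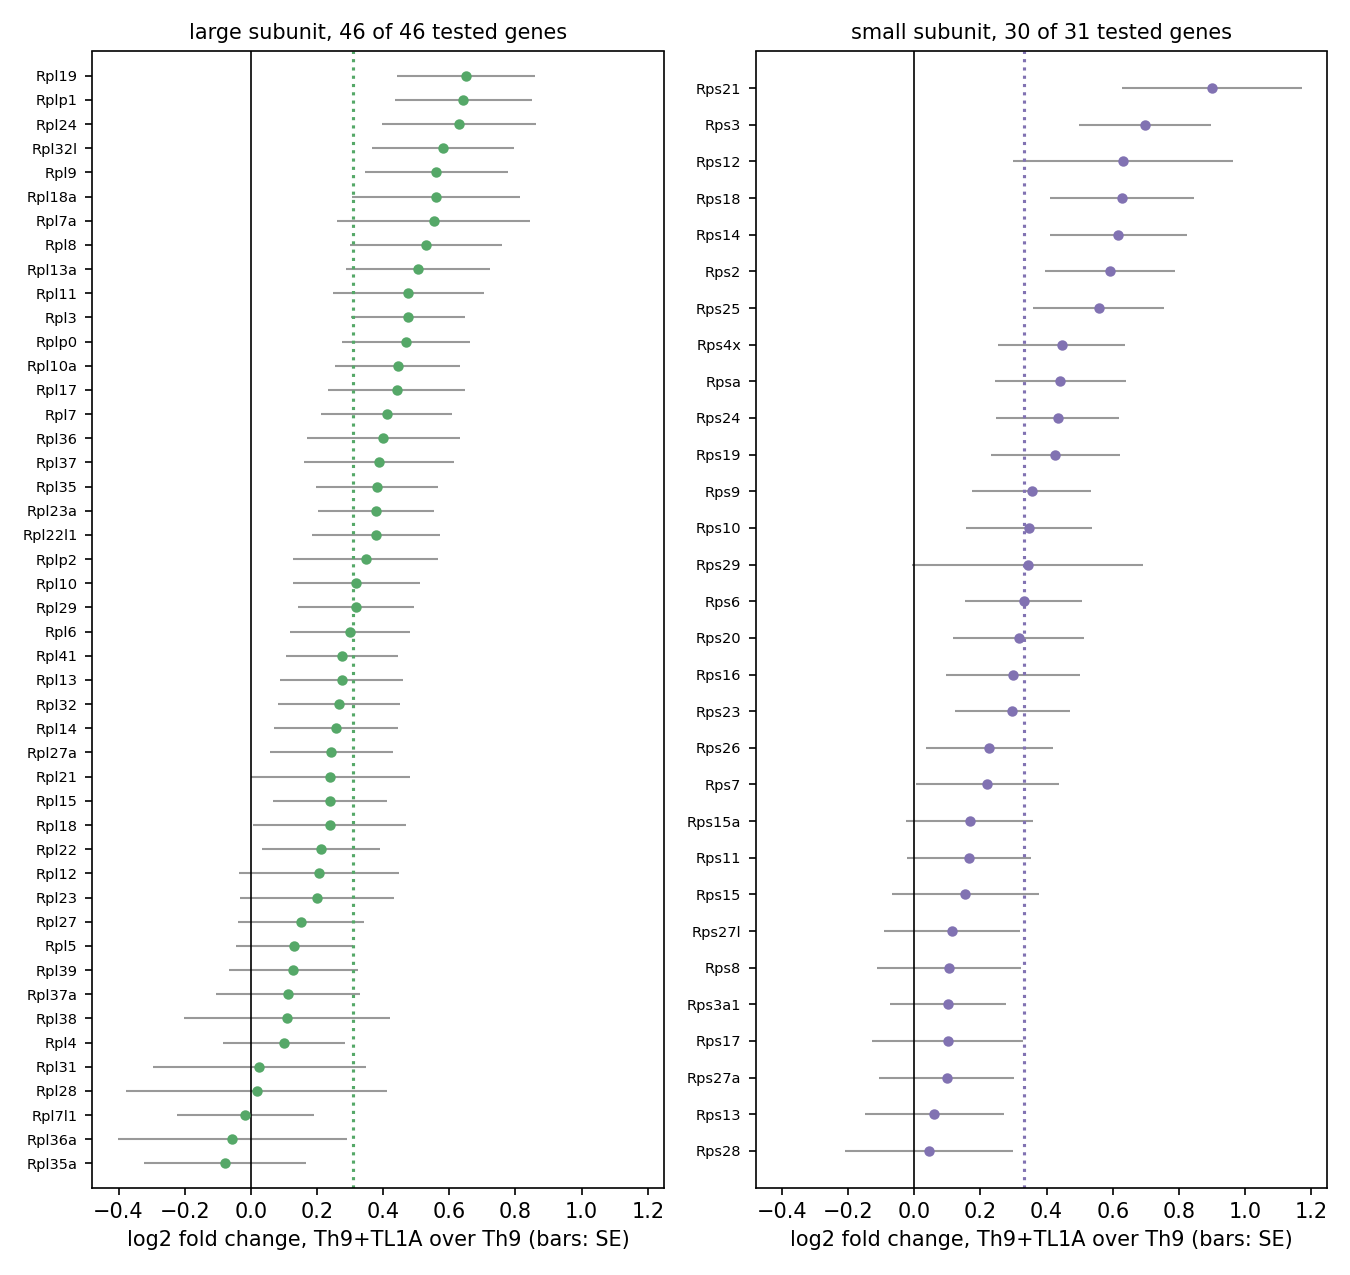
Log2 fold change (Th9+TL1A over Th9, TMM-scaled log2(CPM + 1)) of the 46 large and 30 of the 31 small subunit genes tested, with bars of 1 standard error and a dotted line at each subunit's median. Nearly all points lie right of 0, and the 3 left of it, Rpl35a, Rpl36a and Rpl7l1, belong to the large subunit.

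The replicates differed along the same axis as the groups. Set against each gene's own mean, the median deviation of the 77 members on the log2 scale was -0.29 in Th9 replicate 1, -0.02 in Th9 replicate 2, 0.24 in Th9+TL1A replicate 1 and 0.08 in Th9+TL1A replicate 2. Th9 replicate 1 was the lowest library for 66 of 77 members and Th9+TL1A replicate 1 the highest for 57. Over all tested genes these counts were 2970 and 2823 of 10324. The order was not particular to the family. The 100 most abundant genes of each library held 15.8% and 18.4% of reads in Th9 and 20.1% and 19.4% in Th9+TL1A. These shares put the libraries in the same order, and their part in the family's difference was not tested. Th9 replicate 2 lay above Th9 replicate 1 for 38 of 46 large and all 31 small subunit genes, by a median of 0.22 and 0.34. The group difference exceeded both differences between replicates for 34 of 77 members, 20 large and 14 small, all with TL1A higher, against 17.3% of all tested genes in that direction. Leaving out Th9 replicate 1 lowered the medians to 0.19 (large) and 0.18 (small), and leaving out Th9 replicate 2 raised them to 0.42 and 0.51. Without Th9+TL1A replicate 1 the medians were 0.24 (large) and 0.28 (small), and without Th9+TL1A replicate 2 they were 0.40 and 0.40.

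**Figure D3:**
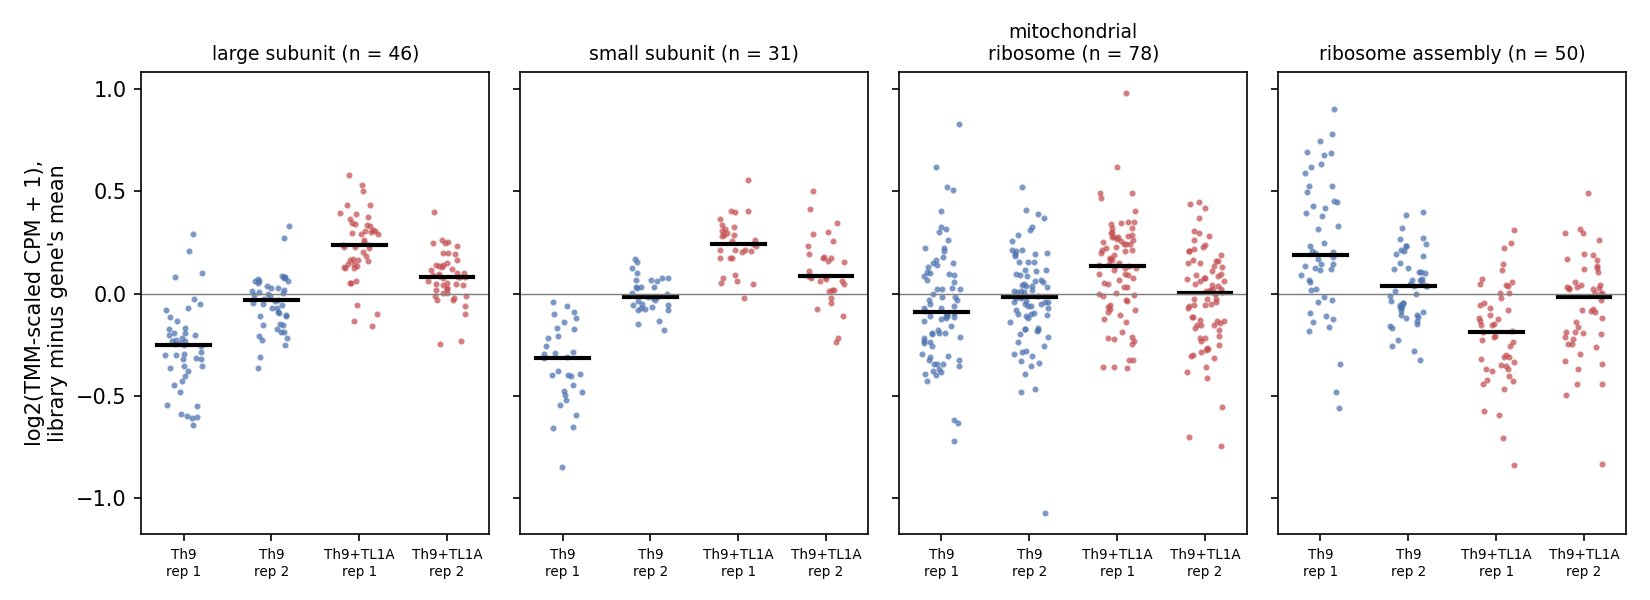
Each point is a gene's TMM-scaled log2(CPM + 1) in one library minus its mean over the 4 libraries, with black bars at the medians, for the 2 subunits, the mitochondrial ribosome and ribosome assembly factors. In both cytosolic subunits Th9 replicate 1 has the lowest median and Th9+TL1A replicate 1 the highest, whereas for assembly factors Th9 replicate 1 has the highest median (0.19) and Th9+TL1A replicate 1 the lowest (-0.19).

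Differences in level among the members were much alike in all 4 libraries. Pearson's r between any 2 libraries over the log2 levels of the 77 members lay between 0.980 and 0.992, a description across genes that share libraries and, for many, sequence. The 10 most abundant members held 47.7% of the family's reads, and 7 members averaged at least 1000 CPM. Per kb of transcript, mean levels reached 2093 CPM per kb for Rpl32, 1492 for Rpl4, 1476 for Rpl8 and 1440.4 for Rps3; Rpl32 was named here after its value was seen.

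Rps3 came closest to passing the test. This protein of the head of the small subunit, which lines the mRNA entry channel and is also known in DNA repair, was the most abundant member, with 1989.8 and 2380.0 CPM in Th9 and 3426 and 3198 CPM in Th9+TL1A. The 2 Th9+TL1A libraries were clearly the higher ones. Its log2 fold change was 0.70 ± 0.20 (SE), an adjusted p of 0.126 in limma and 0.0061 in DESeq2.

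Rps21, a short protein of the small subunit, had the highest log2 fold change of the family. It stood at 49.5 and 81.5 CPM in Th9 and at 107 and 117 CPM in Th9+TL1A. All 4 libraries differed, with no overlap and Th9 replicate 1 far below the rest. The log2 fold change was 0.90 ± 0.27 with a limma adjusted p of 0.140, and 0.50 with an adjusted p of 0.557 without Th9 replicate 1. Rps12, a head protein whose gene holds 3 snoRNA genes, had 24.0 and 28.7 CPM in Th9 and 45.6 and 32.8 CPM in Th9+TL1A. Its log2 fold change of 0.63 had an SE of 0.33 and was 0.39 without Th9+TL1A replicate 1. Only 9.89% of the 50-base stretches of its transcript were absent from all other annotated transcripts.

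Rps6, the subunit protein phosphorylated by the S6 kinases downstream of mTOR, had 938 and 1002 CPM in Th9 and 1215 and 1078 CPM in Th9+TL1A. The Th9+TL1A libraries were higher without overlap, and the replicates of each group differed by 0.18 and 0.19 on the log2 scale, beside a group difference of 0.33 ± 0.18. Rpsa, known also as the laminin receptor precursor, had 691 and 927 CPM in Th9 and 1045 and 997 CPM in Th9+TL1A, a log2 fold change of 0.44 ± 0.20 (limma adjusted p 0.288) that was 0.18 without Th9 replicate 1 and 0.71 when the other Th9 library was left out. The gene overlaps Gm5922. Its transcript shares 50-base stretches with 27 annotated pseudogenes.

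In the large subunit the stalk proteins, which recruit the translation factors, all had higher means with TL1A. Rplp0, the stalk base, had 1159 and 1463 CPM in Th9 and 1669 and 1716 CPM in Th9+TL1A (log2 fold change 0.47 ± 0.19, limma adjusted p 0.254). Rplp1 had 239 and 308 CPM against 449 and 353 CPM, a log2 fold change of 0.64 ± 0.21 (limma adjusted p 0.158). For both genes the groups did not overlap. Rplp2 had 92.3 and 112.1 CPM against 133 and 111.6 CPM, a log2 fold change of 0.35 ± 0.22. Its groups overlapped in deposited CPM and parted only after TMM scaling. Without Th9 replicate 1 the log2 fold changes were 0.25 for Rplp0, 0.41 for Rplp1 and 0.16 for Rplp2, and without Th9 replicate 2 they were 0.69, 0.88 and 0.54.

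Rpl19, a protein at the subunit interface, had 81.9 and 85.9 CPM in Th9 and 117 and 131 CPM in Th9+TL1A. Both Th9+TL1A libraries were well above both Th9 libraries. The replicate differences were 0.15 in each group beside a log2 fold change of 0.65 ± 0.21, the highest of the subunit (limma adjusted p 0.158). The gene overlaps Cacnb1, and the library kit does not mark strand, so reads of the 2 genes cannot be told apart where they overlap. This limit holds for 18 members in all, among them Rpl35a, Rpl31, Rpl5, Rps2 and Rps25. Their median log2 fold change was 0.33, against 0.32 for the 59 tested members that overlap no other gene.

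Rpl8, near the peptidyl transferase center, had 858 and 1294 CPM in Th9 and 1596 and 1277 CPM in Th9+TL1A. Th9 replicate 2 and Th9+TL1A replicate 2 were level, and the log2 fold change of 0.53 ± 0.23 had a limma adjusted p of 0.276. Leaving out Th9 replicate 1 gave 0.19, and leaving out the other Th9 library gave 0.88. Rpl4, which lines the exit tunnel and is the most abundant large subunit mRNA, had 2320.3 and 2254 CPM in Th9 and 2418 and 2188 CPM in Th9+TL1A. Its groups overlapped completely, with each Th9 value between the Th9+TL1A values. The log2 fold change was 0.10 ± 0.18 after TMM scaling and 0.0085 on the deposited CPM. Its gene holds 5 snoRNA genes, the most of any member.

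Rpl5 and Rpl11 form, with 5S rRNA, the particle that is also known to bind MDM2 and stabilize p53 when ribosome assembly fails. Rpl5 had 204 and 196 CPM in Th9 and 203 and 209 CPM in Th9+TL1A (log2 fold change 0.13 ± 0.18), so its deposited levels overlapped. Rpl11 had 82.4 and 65.4 CPM against 104 and 88.6 CPM, with a log2 fold change of 0.48 ± 0.23 (limma adjusted p 0.318). Both Rpl11 replicate pairs differed by 0.25 on the log2 scale.

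At the other end of the order 5 large subunit genes were near 0. Rpl35a had 78.9 and 70.1 CPM in Th9 and 75.9 and 57.4 CPM in Th9+TL1A, a log2 fold change of -0.08 ± 0.24. Rpl36a had 29.4 and 24.9 CPM against 22.2 and 26.9 CPM (-0.06 ± 0.34). Rpl28 had 26.5 and 16.1 CPM against 20.1 and 19.1 CPM (0.02 ± 0.40). These are among the scarcer members, and in each the replicates spread more than the groups. Rpl31 had 32.2 and 49.3 CPM against 40.9 and 35.4 CPM (0.03 ± 0.32). Rpl7l1 is described with the paralogues below.

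**Figure D4:**
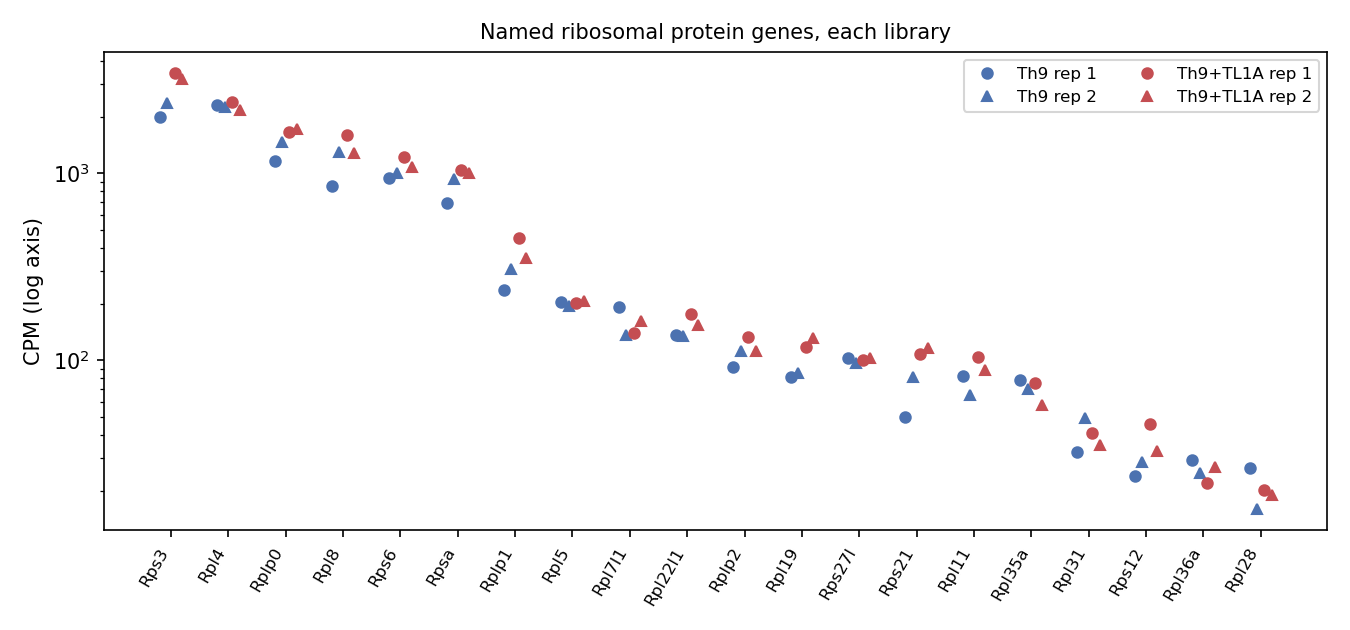
CPM on a log axis of 20 of the 21 members singled out by rule, in each library (circles replicate 1, triangles replicate 2). For Rps3, Rplp0, Rplp1, Rpl19 and Rps21 both red points lie above both blue points, and for Rpl4 the 4 points lie together between 2188 and 2418 CPM.

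Sorted by the search at annotated start sites, members with and without a match had similar medians. A pyrimidine run that begins outside the searched range counts as no match, as in the Rpl4 window printed above. The classes may therefore be mixed, and the part of the tract in the difference was not tested. Tested members with a tract had a median log2 fold change of 0.30 (n = 35) and those with a start site but no tract 0.28 (n = 23), beside -0.01 for all tested genes. Of the sequences printed above, Rps21 and Rpl35a both carry a tract, of 7 and 13 bases, and hold the highest and the lowest log2 fold change. Rps3 and Rpl4 both lack a match, with values of 0.70 and 0.10. Genes that hold snoRNAs within their span, 30 members with 59 snoRNA genes, had a median of 0.30 over 29 tested members, against 0.34 over the other 48.

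The family's transcripts are short, with a median of 751 bases against 2798 for other tested genes. Other genes with transcripts under 1000 bases had a median log2 fold change of 0.11 (n = 664), and longer ones -0.03 (n = 9246). Within the family the 58 members under 1000 bases and the 18 longer ones had medians of 0.32 and 0.31. With the trend over length among other genes removed, the medians were 0.18 for the large and 0.19 for the small subunit, with 61 of 77 members above 0. The part of transcript length in the difference was not tested. More abundant members lay higher, with a median of 0.37 over the 38 above the family's median level and 0.23 over the 39 others (Pearson's r of log2 fold change with log2 mean CPM 0.325, n = 77, across genes of the same libraries).

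Several family genes have a paralogue, some of which can take the partner's place in the ribosome, and the share of the pair's reads was followed in each library. Rpl22l1 had 136 and 135 CPM in Th9 and 177 and 155 CPM in Th9+TL1A, beside 235 and 253 against 276 and 255 CPM for Rpl22. Its share was 36.7% and 34.8% in Th9 and 39.1% and 37.8% in Th9+TL1A. The shares did not overlap, and they differed by 2.70 percentage points beside a pooled SD of 1.17. Leaving out Th9 replicate 2 gave 1.73 points, and leaving out the other Th9 library gave 3.67. Of the 50-base stretches, 42.7% for the Rpl22l1 transcript and 75.5% for the Rpl22 transcript occurred in no other gene's transcripts. The counting of reads that fit several places is not given, so the share of Rpl22l1 is uncertain. Rpl22 and Rpl22l1 are known from T cell development.

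Rpl36al took 87.5% and 88.8% of the reads of the Rpl36a pair in Th9 and 92.0% and 90.6% in Th9+TL1A, 3.16 points more with no overlap. It was outside the naming rule of the family but on the list of pairs. Its partner Rpl36a had 66 to 119 reads a library, and only 14.5% of the 50-base stretches of the Rpl36a transcript occurred in no other gene's transcripts. How reads that fit several places were counted is not given, so this share is uncertain. Rpl7l1, the paralogue of Rpl7 that acts in ribosome assembly, had 192 and 137 CPM in Th9 and 141 and 161 CPM in Th9+TL1A. Its share was 21.9% and 13.6% against 11.7% and 15.5%, and Th9 replicate 1 alone set the difference of means, which was -4.13 points with it and 0.058 without it. The pseudogene Rps4l took 0.587% and 1.23% against 0.594% and 0.757% of its pair with Rps4x, on 45 reads in all. With 5 pairs and 2 libraries a group, the exact permutation test cannot give a p below 0.333 for any of them.

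Rps27l, known as a p53 target, had 102 and 96.9 CPM in Th9 and 100.4 and 102 CPM in Th9+TL1A. The 4 levels lay together (log2 fold change 0.11 ± 0.21). It made up 97.4% to 99.5% of the reads of its pair because its partner Rps27 had almost none. The other large subunit paralogues on the pair list, Rpl3l, Rpl10l and Rpl39l, known from muscle or testis, had 0 reads in all 4 libraries. This allows up to 0.742 to 1.01 CPM.

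Genes that every ribosome is thought to need were also nearly empty. Rps27 had 2 and 2 reads in Th9 and 8 and 5 in Th9+TL1A. Rpl26 had 0, 1, 0 and 0 reads, Rpl30 had 1, 2, 3 and 2, and Rpl34 had 5, 10, 6 and 3, in the order Th9 replicates 1 and 2 and Th9+TL1A replicates 1 and 2. These 4 genes and the 3 paralogues at 0 make up the 7 members that were not tested, and at these counts no difference between the groups was detectable.

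The files do not say how reads that fit several places were counted, so each member's transcript was compared with all other annotated transcripts of GENCODE M21. Over 83 members with a transcript a median of 46.4% of 50-base stretches occurred in no other gene's transcripts, and 80 members shared a stretch with an annotated pseudogene. Rps27 was at 1.35%, Rpl26 at 28.7%, Rpl30 at 52.2% and Rpl34 at 49.4%. The 7 members above 1000 CPM had a median of 83.5%, with 97.0% for Rps3, and the 10 members with reads under 50 CPM had 36.7%. Across the 80 members with reads the relation was weak (Pearson's r 0.191, Spearman's rho 0.111 of log2 mean CPM per kb with the percent unique), and low-share genes such as Rps6, at 15.4%, still averaged 1206 CPM per kb. The comparison was added after the low counts were seen, and what left those 4 genes nearly empty was not tested.

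**Figure D5:**
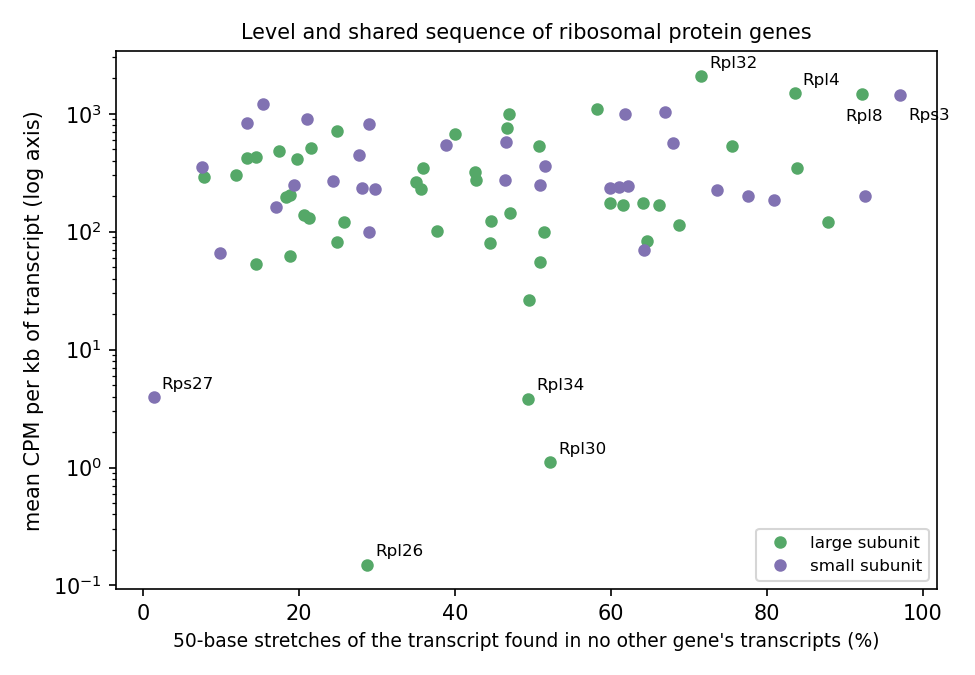
Mean CPM per kb of transcript (log axis) against the percentage of 50-base stretches of the transcript found in no other gene's transcripts, for 79 of the 80 members with reads and an annotated transcript. Rps27, Rpl26, Rpl30 and Rpl34 lie far below all other points, at 1.35% to 52.2%. The labelled abundant members, Rps3, Rpl4, Rpl8 and Rpl32, lie to the right. Rps6 and Rplp0, not labelled but also above 1000 CPM, lie at 15.4% and 58.2%.

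Some copies of family genes outside the naming rule held many reads and others almost none; those given here were chosen after their values were seen. Rps27rt, a retrotransposed copy of Rps27, and the pseudogene Rplp2-ps1 had 0 reads in every library, and Rpl34-ps1 had 1 or 2. The transcripts of Rps27 and Rpl34 each share 50-base stretches with 9 other genes, and the reads of not all of these were examined. Rpl37rt, a retrotransposed copy of Rpl37, had 749 and 869 CPM in Th9 and 1127 and 937 CPM in Th9+TL1A, beside 81.2 and 88.4 against 117 and 92.5 CPM for Rpl37 itself. The pseudogene Rps15a-ps6 had 166 and 208 against 223 and 204 CPM, beside 159 and 151 against 178 and 149.9 CPM for Rps15a. Rpl32l, a member by its symbol that lies within the span of Map7 at chr10:20208439-20209030, had 371 and 543 against 671 and 593 CPM. Levels of members with such copies are therefore uncertain in absolute terms.

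Genes that work with the family lay in both directions without any call. All 4 other cytosolic ribosomal genes lay higher, with a median log2 fold change of 0.45. Rack1, a scaffold on the small subunit, had 917 and 1177 CPM in Th9 and 1360.0 and 1306 CPM in Th9+TL1A (0.45 ± 0.19, limma adjusted p 0.270). Of 19 tested genes on a list of 20 other mRNAs known for a TOP tract, 17 lay above 0 (median 0.29), led in level by the elongation factor Eef1a1 with 8782 and 11809.9 CPM in Th9 and 13417 and 13519.8 CPM in Th9+TL1A. The Th9+TL1A libraries of Eef1a1 were both higher, and its log2 fold change was 0.50 ± 0.26 (limma adjusted p 0.367). Th9 replicate 1 was again the lowest library for 15 of the 19. Mitochondrial ribosomal proteins, which serve a separate ribosome, had a median of 0.13 with 53 of 78 above 0. Over all tested genes 48.9% lay above 0. Mrpl15, the most abundant of them, had 148 and 151 CPM in Th9 and 175 and 174 CPM in Th9+TL1A (0.31 ± 0.19, limma adjusted p 0.429). Limma called 0 genes on each of these lists, against 0.891% of all tested genes called higher. At an unadjusted p under 0.05 in the higher direction it found 3 of 4, 4 of 19 and 4 of 78. Rack1 is on both of the first lists and counts in the 3 of 4 and in the 4 of 19. The share of all tested genes at that level was 8.54%, above that of the mitochondrial list.

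Ribosome assembly and rRNA synthesis genes lay mostly the other way from the proteins they assemble. Of 50 tested, 38 lay below 0, beside 5275 of all 10324 tested genes, and the median log2 fold change was -0.28. The groups did not overlap with TL1A lower for 24 and higher for 5, beside 23.7% of all genes each way. Limma called 0 of them (12 lower and 1 higher at an unadjusted p under 0.05, against 8.14% of all tested genes lower and 8.54% higher). Their lowest and highest libraries mirrored the family, with a median deviation of 0.19 in Th9 replicate 1 and -0.19 in Th9+TL1A replicate 1. Npm1, a nucleolar chaperone and the most abundant of the list, did not follow, at 1279 and 1132 CPM in Th9 and 1319 and 1228 CPM in Th9+TL1A (0.17 ± 0.17). It is also on the list of other mRNAs known for a TOP tract. Among genes named after their values were seen, Nop56, a core protein of box C/D particles that guide rRNA methylation, had 352 and 251 CPM against 199 and 158 CPM (-0.65 ± 0.21, limma adjusted p 0.151). Dkc1, which converts uridine to pseudouridine in rRNA, had 226 and 135 CPM against 102 and 93.8 CPM (-0.74 ± 0.24, limma adjusted p 0.156).

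Genes that control ribosomal protein synthesis were mixed, with 6 of 15 above 0, against 48.9% of all tested genes, and a median of -0.12. Limma called 0 of them (1 higher and 5 lower at an unadjusted p under 0.05, against 8.54% of all tested genes higher and 8.14% lower). Myc, the transcription factor known to drive ribosome genes, had 418 and 359 CPM in Th9 and 328 and 322 CPM in Th9+TL1A. Both Th9+TL1A libraries were lower, and the log2 fold change was -0.16 ± 0.17. Rps6kb1, the kinase of the Rps6 protein and named here after its value was seen, had 148 and 95.3 CPM against 60.7 and 53.9 CPM (-0.95 ± 0.25, limma adjusted p 0.101).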

How the data were processed

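RNA of 4 mouse T cell libraries was measured by RNA-seq on an Ion Torrent instrument from SMARTer low-input cDNA, per the labels' protocols; the kit does not mark strand. The authors deposited CPM, 1 file per library; HTSeq 0.5.4, edgeR and the build mm10 are named in the submitters' processing notes. Not given in the sources used here are the aligner, the annotation and the treatment of reads with several matches. Deposited CPM values were whole multiples of 1 read for 100% of values within 0.01 read, so reads were recovered.

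Symbols came from RefSeq on GRCm38.p6 for 23383 of 23480 identifiers. Genes were filtered with filterByExpr (minimum count 10, leaving 10324), and log2(CPM divided by the TMM factor + 1) was fitted with limma on the group alone, with Benjamini-Hochberg adjustment over all genes. The pseudocount of 1 CPM understates changes of low genes. Printed CPM are as deposited. Reads are not independent molecules, so read floors cover counting error only. Transcript length and shared 50-base stretches came from GENCODE M21, using the shortest principal transcript. Tools were limma 3.58.1 and edgeR 4.0.16 with DESeq2 1.42.0 in R 4.3.3, and Python 3.11.15.

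The members and lists were chosen with earlier results of these data known. Genes were named by a rule: called members, the 5 highest and 5 lowest log2 fold changes, the 3 most abundant of each subunit, paralogues with reads, stalk genes, Rpsa, Rps6, Rpl5, Rpl11, untested members, and the most abundant gene of each list where none was called. Alternatives were other scalings, filters, pseudocounts, edgeR, DESeq2 and voom on recovered reads, a replicate block, removal of a length trend, sums without paralogues or the most abundant members, and leaving out each library. The sums without Rps3 or Rpl4 alone were chosen after seeing the data. The values of 1 member are not reported here by name; it is included in all counts, sums and medians.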

Additional observations from a re-analysis of the deposited data

How the results depend on the processing

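No member was called under any alternative except DESeq2, which called 1 (Rps3, log2 fold change 0.69). The median log2 fold change stayed above 0 for both subunits, from 0.19 to 0.42 (large) and 0.18 to 0.51 (small) when 1 library was left out, and it was 0.22 and 0.24 with total count scaling, under which the median of all genes was -0.10. With the replicate number as a block, 0 members and 225 genes in all were called (118 without it). The lowest adjusted p of a member was then 0.0774, in limma. Deviations of same-numbered libraries had a correlation of -0.011 over all genes. With a single replicate difference per group, this cannot tell whether same-numbered libraries share a mouse, a culture or a batch. The difference in the large to small ratio was -0.022 without the most abundant member of each subunit and lay between -0.138 and -0.052 when 1 library was left out; the cause was not tested. Paralogue share differences ranged over -8.32 to 0.058 points for Rpl7l1, -0.553 to 0.088 for Rps4l, 1.73 to 3.67 for Rpl22l1, 2.45 to 3.87 for Rpl36al and -2.04 to -0.998 for Rps27l when 1 library was left out. Single genes near 0 turned sign: Rpl28 gave -0.071 (total count), -0.020 (edgeR), -0.014 (DESeq2), -0.022 (voom) and -0.11 (length trend removed), and -0.27 to 0.31 when 1 library was left out. Rpl31 gave -0.064 (total count), -0.0046 (edgeR), -0.0046 (DESeq2) and -0.13 (length trend removed), and -0.32 to 0.38 when 1 library was left out. Rps27l gave -0.041 with the length trend removed, and with 1 library left out Rpl35a ranged over -0.28 to 0.13, Rpl36a over -0.18 to 0.074 and Rpl7l1 over -0.20 to 0.18. With 1 library left out, the lone sample of a group is assumed to vary like the other group. At 2979482 to 4041633 reads a library, members under 50 CPM rest on the fewest reads and had wide standard errors.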

Other observations

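The genes given here were chosen after their values were seen. Rps2, a small subunit protein at the mRNA entry channel, had 641 and 851 CPM in Th9 and 1068 and 1023 CPM in Th9+TL1A, a log2 fold change of 0.59 ± 0.20 (limma adjusted p 0.166). Rps18, a head protein at the subunit interface, had 307 and 464 CPM against 534 and 562 CPM (0.63 ± 0.22, limma adjusted p 0.185). Rps25, whose protein is known for its part in internal initiation, had 230.1 and 293 CPM against 390 and 330.4 CPM (0.56 ± 0.20, limma adjusted p 0.196). In all 3 genes the Th9+TL1A libraries were both above the Th9 libraries, and Th9 replicate 1 was the lowest. Rps3a1 had 792 and 799 CPM against 869 and 739 CPM (0.10 ± 0.17), so its groups overlapped. Vim, the intermediate filament gene on the list of other mRNAs with a TOP tract, had 1891 and 2757 CPM in Th9 and 3721 and 3846 CPM in Th9+TL1A (0.82 ± 0.23, limma adjusted p 0.120). Ncl, the nucleolar protein nucleolin, had 1494 and 991 CPM in Th9 and 856 and 877 CPM in Th9+TL1A (-0.40 ± 0.20, limma adjusted p 0.344), with Th9 replicate 1 well above the other 3 libraries.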
